A study of Macaca fascicularis with 16 samples.

Results

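The genes described here code for the proteins of the cytosolic ribosome, together with the few close copies of them that carry the same kind of name. They were chosen by symbol alone: every gene that the array's annotation names with a single symbol starting RPL, RPS or RPLP and a number was taken, and the kinases named RPS6K were left out. The rule found 41 genes among the 14132 genes with a single symbol. Of these, 22 belong to the 46 core proteins of the large subunit on a textbook list and 12 to the 30 of the small subunit. A further 6 are paralogues of ribosomal proteins (RPL3L, RPL7L1, RPL22L1, RPL26L1, RPL36AL and RPS27L). The remaining gene, RPS19BP1, shares the name but codes for a binding partner of RPS19 and is no part of the ribosome. Each gene was followed through the brightest of its probe sets, the groups of spots designed against a transcript or a family of similar ones; 17 of the 41 genes had more than 1 probe set, and 69 probe sets carried the names in all.

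Endometrium, the lining of the uterus, was taken from 16 postmenopausal female cynomolgus macaques (Macaca fascicularis) after 4 months of treatment, and the RNA of each animal went onto its own array. Randomization had formed 4 arms of 4 animals. The estradiol arm was fed 0.25 mg of micronized estradiol for every 1800 kcal. The tamoxifen arm received 20 mg per 1800 kcal of tamoxifen, a drug that blocks or activates the estrogen receptor depending on the tissue. The combination arm received both drugs at these doses, and the control arm received placebo. All 4 arms share the postmenopausal state, in which the ovaries make little estrogen, and the arrays carry probes designed for a related species, the rhesus macaque.

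A ribosome is built from ribosomal RNAs and one copy of nearly every ribosomal protein, so the genes for these proteins are usually expressed together and at very high levels. Their messenger RNAs begin with a tract of pyrimidines through which the mTOR pathway controls their translation, and assembly of the subunits in the nucleolus is promoted by MYC. Estrogen makes the postmenopausal endometrium grow, with dividing glands and an expanding stroma, and tamoxifen acts there partly like an estrogen.

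Values are array signals on a linear scale, already brought to a common level on every array before deposit. Median signals per array ran from 58.6 to 70.2. A change is the difference between 2 arms in the mean of log2(signal + 4.80), whose standard error (SE) comes from 1 limma fit to all 16 arrays, and a change passed the test where the p adjusted over all 31660 probe sets was under 0.05. RPL3L and RPS27L were too dim to be tested, with signals of 1.4 to 41.4 and 11.5 to 30.4, which left 39 genes. RPL3L is known as the form of RPL3 in heart and skeletal muscle. In tissue makeup 2 arrays stood apart. The median deviation of 13 smooth muscle genes was -3 on array estradiol 4 and -0.81 on array tamoxifen 1, against -0.06 to 0.54 on the other arrays. Of the markers fixed for the tissue, 11 of 13 epithelial and 12 of 12 stromal genes were bright enough to test. The 4 arrays of an arm limit the precision of every value, and in a piece of tissue fewer cells of a type and less RNA per cell cannot be told apart.

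Against control, more of the ribosomal protein genes were lower than higher in each treated arm, by small amounts, and most of these differences shrank when all arrays were given the same distribution of signals. With estradiol 11 of the 39 genes fell and 1 rose, where 12.3% of all probe sets fell and 13.2% rose. With tamoxifen 5 fell and 1 rose, where 6.17% of all probe sets fell and 7.14% rose. With the combination 15 fell and 1 rose, where 7.79% of all probe sets fell and 8.05% rose. The share that fell was 28.2% with estradiol, 12.8% with tamoxifen and 38.5% with the combination. The median change of the 39 genes was -0.16 with estradiol, -0.10 with tamoxifen and -0.21 with the combination, and after quantile normalization, which gives every array the same distribution, it was -0.030, -0.041 and -0.063 in that order. The median change of all probe sets was -0.02, -0.02 and -0.03 in the arrays as deposited. After quantile normalization it was -0.027, -0.034 and -0.043. With estradiol and tamoxifen the median of the 39 genes was thus near that of all probe sets after quantile normalization. The 3 comparisons share the 4 control arrays, so they are not independent of each other.

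The direction of single changes and the separation of the arrays were counted as well. The change was below 0 in 30 of 39 genes with estradiol, 29 with tamoxifen and 33 with the combination. These are 76.9%, 74.4% and 84.6% of the 39 genes, where 51.8%, 52.6% and 53.6% of all probe sets lay below 0. After quantile normalization the counts were 23, 23 and 26, nearer to these shares of all probe sets. With estradiol the 4 arrays lay below all 4 control arrays in 16 genes and above them in 1, where 11.9% and 12.4% of all probe sets did so. With tamoxifen they lay below in 6 and above in 2, where the shares of all probe sets were 9.73% and 9.02%. With the combination they lay below in 18 and above in 1, where the shares were 11.8% and 11.7%.

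Single arrays moved these counts, and the only calls of the 39 genes to hold in all 25 alternative settings were those of RPS21 and RPL36AL in the 3 arms and of RPL8 with the combination. The total of 12 genes that passed with estradiol was 4 without array control 2 or without array estradiol 2, and 7 without control 3 or without estradiol 1. The total of 6 with tamoxifen was 3 without control 3 or without tamoxifen 2, and 2 without tamoxifen 4. The total of 16 with the combination was 9 without control 2, 10 without control 3 and 8 without combination 3. Leaving out both arrays that stood apart in smooth muscle left 10 genes lower with estradiol, 4 with tamoxifen and 16 with the combination.

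**Figure D1:**
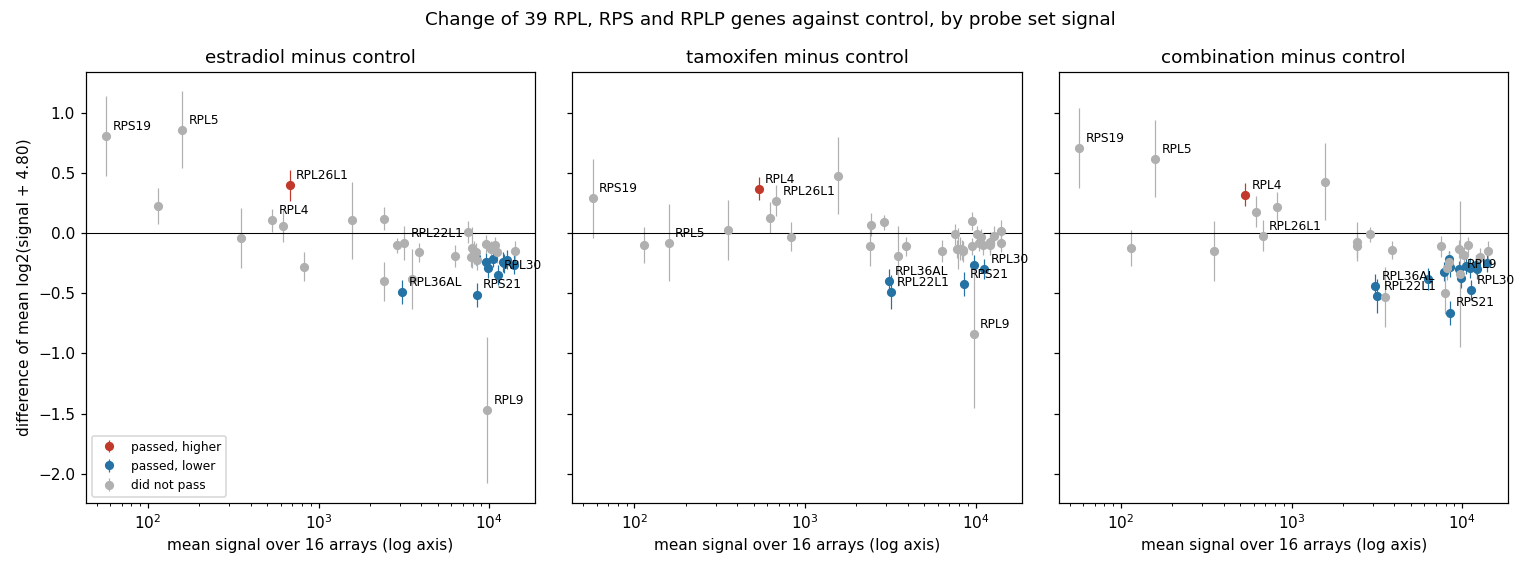
Change against control (y axis, difference of mean log2(signal + 4.80), points with bars of 1 SE) of the 39 tested genes plotted by the mean signal of their probe set over 16 arrays (x axis, log scale), for estradiol, tamoxifen and the combination. Blue points passed the test as lower, red points as higher and grey points did not pass. The genes that fell lie mostly at signals of 5000 or more, and quantile normalization takes the calls down to 2, 4 and 5 lower genes. Under it 12.2%, 6.34% and 7.71% of all probe sets fell.

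The genes that fell were mostly those with the brightest probe sets. Of the 34 core genes, 23 had a mean signal of 5000 or more, and among these 10 fell with estradiol, 3 with tamoxifen and 13 with the combination, with none higher. Their median change was -0.20, -0.11 and -0.28. Among the 11 core genes with dimmer probe sets none fell in any of the 3 comparisons, and 1, RPL4, rose with tamoxifen and with the combination; in limma without adjustment 3, 1 and 2 of these 11 had a p under 0.05, where 37.6%, 29.1% and 30.5% of all probe sets did. Their median change was 0.11 with estradiol, 0.03 with tamoxifen and -0.01 with the combination. The signal of a probe set depends on its probes as well as on the transcript, so that a dim probe set does not make the gene a weakly expressed one.

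At the 99.5th and 99th percentiles the arrays of each treated arm overlapped those of control, though the mean at the 99.5th was lower in all 3. The core genes of 5000 or more lie higher still. The highest signal of an array was 13986 to 14962 with estradiol, all below the 15344 to 17750 of control. With tamoxifen it was 15694 to 17379 and with the combination 13575 to 16961, both overlapping control. The signal at the 99.5th percentile was 5984 ± 129 with estradiol, 6168 ± 154 with tamoxifen and 5874 ± 253 with the combination, against 6279 ± 271 in control (SD, n = 4 each). At the 99th percentile it was 4004 ± 71.1, 4118 ± 76.7 and 4005 ± 112, against 4062 ± 89.8 in control, so that tamoxifen was higher than control there, within the spread of the arrays. Of the 356 probe sets with a mean of 5000 or more, 49 name a ribosomal protein, alone or with other symbols, and of these 55.1% fell with estradiol, 14.3% with tamoxifen and 61.2% with the combination. Of the 171 that name another single gene, 28.7%, 9.36% and 27.5% fell. Of the 136 with no symbol or with several others, 33.1%, 1.47% and 22.8% fell. None of the 49 rose in any of the 3 comparisons, while 21, 18 and 16 of the 171 and 11, 10 and 7 of the 136 did, which with tamoxifen is more than fell in both groups. The median change of the 49 was -0.23, -0.13 and -0.29, against -0.17, -0.04 and -0.11 for the 171. For the 136 it was -0.19, -0.03 and -0.15. The change was below 0 in 91.8%, 89.8% and 100% of the 49. It was below 0 in 66.7%, 55.6% and 66.1% of the 171 and in 75.7%, 56.6% and 69.9% of the 136. These groups were not tested against each other. The 41 genes together made up 1.35% ± 0.053 of the summed signal of an array with estradiol, 1.44% ± 0.11 with tamoxifen and 1.32% ± 0.053 with the combination, against 1.56% ± 0.077 in control (SD, n = 4 each). The range was 1.28% to 1.41% with estradiol and 1.24% to 1.37% with the combination, both below the control range of 1.47% to 1.64%, while the tamoxifen range of 1.32% to 1.56% overlapped it. The sum includes RPL9, whose probe set was low on arrays estradiol 2, estradiol 4 and tamoxifen 4. The share without RPL9 was not computed.

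Quantile normalization decided most of the single calls. It left 2 of the 11 genes lower with estradiol (RPS21 and RPL36AL), 4 of the 5 with tamoxifen (RPL30, RPS21, RPL22L1 and RPL36AL) and 5 of the 15 with the combination (RPL30, RPS21, RPL8, RPL22L1 and RPL36AL). Under it 12.2%, 6.34% and 7.71% of all probe sets fell with estradiol, tamoxifen and the combination. The 2 of 39 genes with estradiol thus lie below the share of all probe sets. The sign of the change turned in 6, 5 and 6 of the 39 genes. Ribosomal protein probe sets are 49 of the 356 brightest, so giving all arrays the same distribution can also shrink a fall that these genes share. Whether the lost calls came from the scaling of the arrays or from such a fall was not tested. Centring each array on its median instead left 10 genes lower with estradiol, 5 with tamoxifen and 15 with the combination. The genes that rose kept their calls under quantile normalization: RPL26L1 with estradiol, at 0.39, and RPL4 with tamoxifen and with the combination, at 0.37 and 0.31. Median centring ended the call of RPL4 with the combination.

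**Figure D2:**
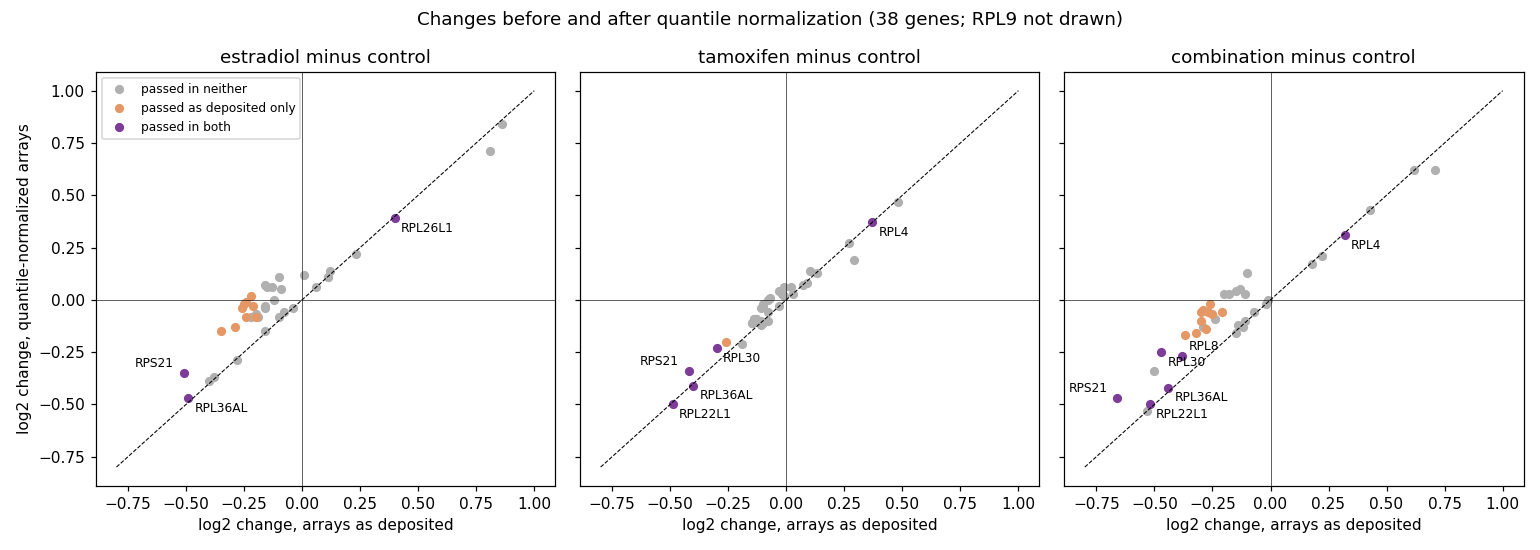
Change of each gene against control in the arrays as deposited (x axis) and after quantile normalization (y axis), both in log2 units, for estradiol, tamoxifen and the combination. RPL9, whose arrays split widely, is not drawn; the dashed line marks equal values. The orange points, which passed only in the arrays as deposited, move up towards 0, while the labelled purple points passed in both.

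RPS21 gave the lowest change of the genes whose arrays did not split. It codes for a small subunit protein with no counterpart in bacteria. Its signals were 7311, 7023, 8458 and 8134 with estradiol, 7812, 7332, 9135 and 8672 with tamoxifen and 7104, 6947, 5811 and 8236 with the combination, against 11478, 10989, 11672 and 9877 in control. Every treated array lay below every control array. The change was -0.51 (SE 0.10, adjusted p = 0.00273) with estradiol, -0.42 (SE 0.10, adjusted p = 0.0166) with tamoxifen and -0.66 (SE 0.10, adjusted p = 0.00116) with the combination. All 3 calls held in each of the 25 alternative settings, and under quantile normalization the changes were -0.35, -0.34 and -0.47.

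Of the 22 large subunit genes 6 fell with estradiol, 2 with tamoxifen and 8 with the combination. These are 27.3%, 9.09% and 36.4% of them, where 12.3%, 6.17% and 7.79% of all probe sets fell. The tamoxifen share is near that of all probe sets. RPL30 and RPL23 fell in all 3 arms. RPL30 lies at the face of the large subunit that meets the small one, and in yeast it also binds its own transcript and represses it. RPL30 gave 9920, 10137, 10833 and 11540 with estradiol, 11400, 9917, 11795 and 10911 with tamoxifen and 10632, 9177, 9092 and 10203 with the combination, against 12607, 15109, 14076 and 12503 in control. No treated array reached the lowest control array. The change was -0.35 (SE 0.084, adjusted p = 0.0066) with estradiol, -0.30 (adjusted p = 0.0277) with tamoxifen and -0.47 (adjusted p = 0.00215) with the combination, and with quantile normalization it was -0.15 with estradiol, which no longer passed, and -0.23 and -0.25 in the other arms.

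RPL23, which can bind and restrain the p53 regulator MDM2 when it is free of the ribosome, had 8909, 8621, 9955 and 9891 with estradiol, 10213, 8519, 10446 and 9036 with tamoxifen and 9000, 8699, 8323 and 9352 with the combination, against 10948, 11945, 12373 and 10454 in control. Again the treated and control arrays did not overlap, although the highest tamoxifen array lay within 10 units of the lowest control array. The change was -0.29 (adjusted p = 0.018), -0.26 (adjusted p = 0.0484) and -0.37 (adjusted p = 0.00837) for estradiol, tamoxifen and the combination, and -0.13, -0.20 and -0.17 after quantile normalization, where none passed. The tamoxifen call held in 7 of the 25 alternatives only. A second probe set of RPL23, nearly as bright, fell by 0.34 with estradiol (adjusted p = 0.00949) and by 0.37 with the combination (adjusted p = 0.00954).

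**Figure D3:**
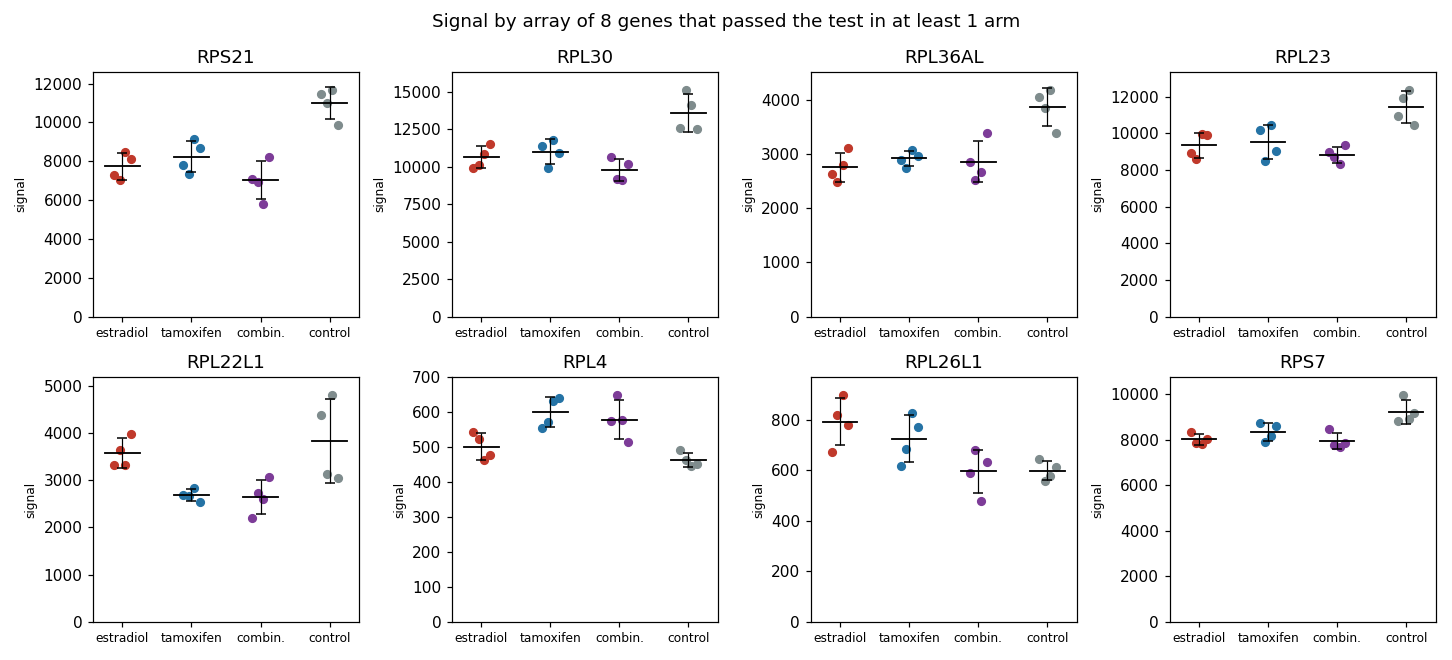
Signal on each array (y axis, from 0, linear scale) of 8 genes that passed the test in at least 1 arm, with the arms estradiol, tamoxifen, combination and control from left to right; points are arrays, bars the mean and SD of 4. RPS21, RPL30 and RPL23 lie below control in every treated array, RPL22L1 is low in both tamoxifen-treated arms, RPL4 is high in the same arms and RPL26L1 is high with estradiol. Under quantile normalization RPL23 and RPS7 no longer passed in any arm.

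Apart from RPL4, the other large subunit genes that passed fell with estradiol, with the combination or with both, and none of them fell with tamoxifen. RPL35A, RPL17, RPL7 and RPLP1 fell with both estradiol and the combination. RPL35A, a gene mutated in some families with the inherited anaemia named after Diamond and Blackfan, had 12133, 13089, 12613 and 13967 with estradiol and 13482, 14518, 12895 and 11425 with the combination, against 14967, 16882, 15086 and 15218 in control. Its change was -0.26 (adjusted p = 0.0199) with estradiol, -0.08 (adjusted p = 0.554) with tamoxifen and -0.25 (adjusted p = 0.0356) with the combination, with no overlap in the arms that passed. RPL7 changed by -0.24 (adjusted p = 0.0231), -0.11 (adjusted p = 0.321) and -0.30 (adjusted p = 0.0113) for estradiol, tamoxifen and the combination. RPL17, which lines the tunnel through which the new protein leaves, changed by -0.24 (adjusted p = 0.0431), -0.07 (adjusted p = 0.595) and -0.26 (adjusted p = 0.0445). After quantile normalization none of these 4 genes passed.

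RPL8 and RPL26 fell with the combination, whereas their change with estradiol did not pass. RPL8, which sits next to the site where peptide bonds form, gave 5954, 5569, 4839 and 5625 with the combination, against 6929, 7918, 7628 and 6163 in control. The change of -0.38 (SE 0.091, adjusted p = 0.0121) held in all 25 alternatives, and its arrays did not overlap those of control. With estradiol alone RPL8 changed by -0.19 (adjusted p = 0.149) and with tamoxifen alone by -0.15 (adjusted p = 0.299). RPL26 lies at the mouth of the exit tunnel and changed by -0.29 with the combination (adjusted p = 0.03), -0.16 with estradiol (adjusted p = 0.178) and -0.10 with tamoxifen (adjusted p = 0.464). The direct comparison of the combination with estradiol passed for neither gene, so a difference between these arms was not shown.

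The stalk of the large subunit, which recruits the elongation factors, is formed by RPLP1 and RPLP2 on a base of RPLP0 with RPL12 beside it. RPLP1 had 11277, 10819, 11114 and 12301 with estradiol and 11310, 12196, 9886 and 10802 with the combination, against 12937, 15263, 13486 and 12675 in control. It changed by -0.25 (adjusted p = 0.0299), -0.10 (adjusted p = 0.419) and -0.30 (adjusted p = 0.0207) for estradiol, tamoxifen and the combination. RPLP2 changed by -0.16, -0.14 and -0.24, with an adjusted p of 0.16, 0.278 and 0.0561. RPL12 changed by -0.09, 0.10 and -0.13 and its arrays overlapped those of control in every arm. RPLP0 was read only by probe sets that name other genes as well, and the brightest changed by -0.07, 0.04 and -0.09, with none passing.

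Of the 12 small subunit genes 4 fell with estradiol, 1 with tamoxifen and 5 with the combination. These are 33.3%, 8.33% and 41.7% of them, where 12.3%, 6.17% and 7.79% of all probe sets fell. With tamoxifen the share is near that of all probe sets. RPS7 and RPS18 fell with estradiol and with the combination, as did RPS21, while RPS15 and RPS26 fell with the combination and RPS6 with estradiol. RPS7, another gene of the Diamond-Blackfan anaemia group, had 8347, 7841, 7825 and 8058 with estradiol and 8477, 7781, 7672 and 7868 with the combination, against 8849, 9962, 8902 and 9194 in control. Its change was -0.20 (SE 0.061, adjusted p = 0.0255) and -0.21 (adjusted p = 0.0282), and -0.14 with tamoxifen (adjusted p = 0.135). RPS18, in the head of the small subunit, changed by -0.21 (adjusted p = 0.0352), -0.08 (adjusted p = 0.495) and -0.27 (adjusted p = 0.0165) for estradiol, tamoxifen and the combination. RPS15, whose tail reaches towards the site that receives transfer RNAs, changed by -0.32 with the combination (adjusted p = 0.0129), and RPS26, which touches the messenger RNA as it leaves, by -0.28 (adjusted p = 0.0379). None of RPS7, RPS18, RPS15 and RPS26 passed after quantile normalization.

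RPS6, the small subunit protein that is phosphorylated through mTOR and S6 kinase, turned with the scaling. It had 11790, 11414, 11726 and 12097 with estradiol, against 12628, 15725, 13459 and 13264 in control, a change of -0.22 (adjusted p = 0.0434), but after quantile normalization the change was 0.02 (adjusted p = 0.821). A second probe set of RPS6 fell by 0.21 with estradiol (adjusted p = 0.0447) and by 0.36 with the combination (adjusted p = 0.00505), while the first changed by -0.20 with the combination (adjusted p = 0.0885). RPS3, a protein of the channel where messenger RNA enters and the gene with the brightest probe set, did not pass in any arm, at -0.15, 0.02 and -0.15. Its second and much dimmer probe set fell by 0.38 with estradiol (adjusted p = 0.046).

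The paralogues did not move as 1 group. RPL36AL, an intronless and expressed copy of RPL36A, had 2629, 2490, 2808 and 3108 with estradiol, 2883, 2746, 3082 and 2966 with tamoxifen and 2854, 2526, 2661 and 3395 with the combination, against 4055, 3847, 4184 and 3387 in control. The estradiol and tamoxifen arrays lay below all control arrays, and 1 combination array overlapped them. It fell by 0.49 (SE 0.10, adjusted p = 0.00283) with estradiol, by 0.40 (adjusted p = 0.0168) with tamoxifen and by 0.44 (adjusted p = 0.00923) with the combination, and these calls held in all 25 alternatives, quantile normalization included. The probe set that names RPL36A with other genes changed by 0.22, 0.00 and -0.09, with none passing.

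RPL22L1, a copy of RPL22 that RPL22 is known to repress in mice, was low in both arms that received tamoxifen. It had 2680, 2670, 2837 and 2527 with tamoxifen and 2190, 2730, 2594 and 3062 with the combination, 3319, 3632, 3324 and 3983 with estradiol, and 4368, 3128, 4795 and 3036 in control. The tamoxifen arrays lay below all control arrays and the combination arrays overlapped them by 1 array. The control arrays were far apart, with a log2 SD of 0.33, against 0.068 with tamoxifen and 0.20 with the combination. The change was -0.49 (SE 0.14, adjusted p = 0.0308) with tamoxifen, -0.52 (adjusted p = 0.0212) with the combination and -0.08 (adjusted p = 0.722) with estradiol, nearly as large after quantile normalization. The tamoxifen call failed in 8 of 25 alternatives, in which its adjusted p reached 0.0901, and the combination call failed in 4. In the probe set followed, RPL22 itself changed by -0.16, -0.11 and -0.14 for estradiol, tamoxifen and the combination and did not pass. A brighter probe set that names RPL22 with other genes changed by -0.42, -0.25 and -0.35 and passed in each arm.

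RPL26L1, a near copy of RPL26, rose with estradiol. It gave 673, 818, 896 and 779 with estradiol, 616, 684, 827 and 770 with tamoxifen and 588, 680, 478 and 633 with the combination, against 642, 558, 578 and 611 in control. The estradiol arrays lay above all control arrays and the other arms overlapped control. Its change was 0.40 (SE 0.13, adjusted p = 0.0304) with estradiol, 0.27 (adjusted p = 0.169) with tamoxifen and -0.02 (adjusted p = 0.949) with the combination. The estradiol call was lost in 6 of 16 fits that each left out 1 array: control 2, 3 or 4 or estradiol 2, 3 or 4, with an adjusted p of up to 0.0756. RPL7L1, a relative of RPL7 that acts in the assembly of the large subunit, changed by -0.40 with estradiol (adjusted p = 0.0813), -0.11 with tamoxifen and -0.07 with the combination. RPS19BP1 changed by 0.06, 0.13 and 0.18 and its arrays overlapped those of control in each arm.

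RPL4, whose long loop reaches into the exit tunnel, was the only core gene that rose. It had 556, 572, 633 and 640 with tamoxifen and 576, 649, 577 and 514 with the combination, 544, 524, 463 and 477 with estradiol, and 492, 464, 445 and 451 in control. The arrays of both tamoxifen-treated arms lay above all control arrays, and those of estradiol overlapped them. The change was 0.37 (SE 0.096, adjusted p = 0.02) with tamoxifen, 0.32 (adjusted p = 0.0359) with the combination and 0.11 (adjusted p = 0.418) with estradiol. The tamoxifen call was lost in 3 of 25 alternatives, with only the arms compared and without tamoxifen 3 or 4, with an adjusted p of up to 0.0586. The combination call was lost in 10 of 25, with an adjusted p of up to 0.111: without control 2, 3 or 4 or combination 1, 2 or 3, with no filter, with median centring (adjusted p = 0.0533), with only the arms compared and with the animal number as a block. Its probe set is dim beside most of the others.

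Of the dimmest tested probe sets, those of RPS19 and RPL5 gave large but uncertain differences, and those of RPS16 and RPL31 changed by 0.23 or less in size. RPS19, the gene most often mutated in Diamond-Blackfan anaemia, had 100, 64.6, 43.7 and 82 with estradiol, against 39, 43.3, 72.2 and 15.1 in control, a change of 0.81 (SE 0.33, adjusted p = 0.086). RPL5, which joins RPL11 and the 5S RNA in a complex that can bind MDM2, had 247, 261, 160 and 193 with estradiol, against 106, 99.9, 177 and 90.4 in control, a change of 0.86 (SE 0.32, adjusted p = 0.0587). Both genes overlapped control. In the probe sets followed, RPS16, RPL31, RPL19, RPL32, RPS10 and RPL24 did not pass in any arm either, with changes between -0.28 and 0.48. A brighter probe set that names RPL24 with other genes changed by -0.34, -0.30 and -0.47 for estradiol, tamoxifen and the combination. All passed (adjusted p = 0.0104, 0.0302 and 0.00265). The brightest that names RPL32 with other genes changed by -0.28 (adjusted p = 0.00728), -0.18 (adjusted p = 0.0904) and -0.35 (adjusted p = 0.00328). RPS10 is a protein marked by ubiquitin when ribosomes stall, and its arrays lay in a narrow band of 2582 to 2790 with estradiol and 2982 to 3164 with tamoxifen, against 2801 to 2932 in control, below control in the first and above it in the second.

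**Figure D4:**
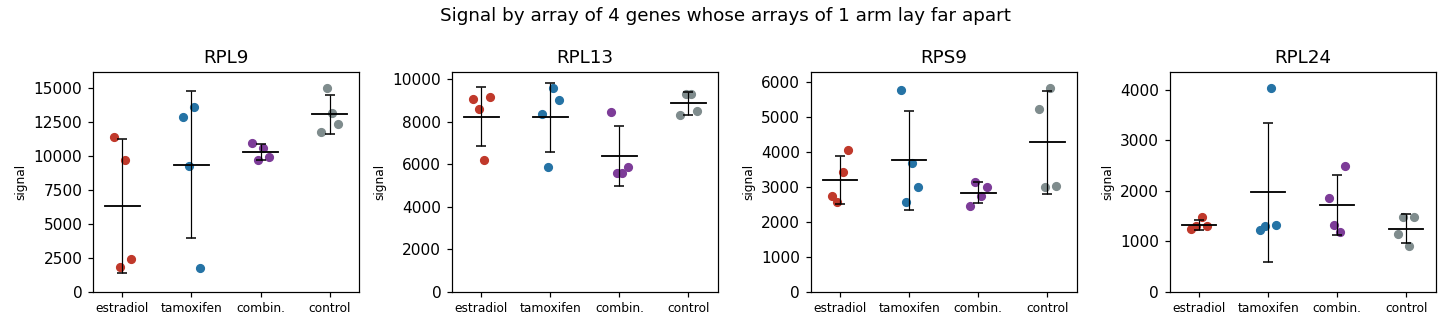
Signal on each array (y axis, from 0, linear scale) of RPL9, RPL13, RPS9 and RPL24, with the arms estradiol, tamoxifen, combination and control from left to right; points are arrays, bars the mean and SD of 4. RPL9 lies between 1722 and 2436 on 3 arrays and between 9255 and 14970 on the others, and RPL13 falls into a band of 5571 to 6193 and a band of 8311 to 9576.

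The arrays of an arm lay far apart in several genes, of which RPL9, RPL13, RPS9 and RPL24 are given here. Others were RPL22L1, with a log2 SD of 0.33 in control, and the dim RPS19 and RPL31, with 0.81 and 0.47 there. RPL9 had 11380, 1789, 9688 and 2436 with estradiol, 12816, 9255, 13583 and 1722 with tamoxifen and 10932, 9675, 10603 and 9886 with the combination, against 11716, 14970, 13174 and 12330 in control. Its change of -1.47 with estradiol had an SE of 0.61 and did not pass (adjusted p = 0.0907). The 3 low arrays were not low in a probe set that names RPL9 together with 2 uncharacterized genes, where they gave 11784, 13097 and 13794. In that probe set the change was -0.23 with estradiol (adjusted p = 0.0434), -0.01 with tamoxifen (adjusted p = 0.949) and -0.20 with the combination (adjusted p = 0.0993). Another, dim probe set for RPL9 alone rose by 0.77 with estradiol (adjusted p = 0.00446), so the probe sets of this gene disagree in direction.

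RPL13 gave 9043, 8573, 6193 and 9152 with estradiol, 8366, 5886, 9576 and 9003 with tamoxifen and 8470, 5571, 5572 and 5866 with the combination, against 8311, 9304, 9294 and 8514 in control. The low band held 3 of the 4 combination arrays, and the change of -0.50 there did not pass (adjusted p = 0.0537). Its second probe set ran evenly from 4747 to 6809 and changed by -0.20 with the combination (adjusted p = 0.184). RPS9, a protein at the entry of the messenger RNA channel, ran from 2571 to 4066 with estradiol, 2579 to 5792 with tamoxifen and 2454 to 3148 with the combination, against 3000 to 5833 in control. RPL24 had 4028 on array tamoxifen 3 and 1221 to 1312 on the other tamoxifen arrays.

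Probe sets of the same gene also disagreed for other genes, in sign or in whether they passed. RPS16 was followed through a dim probe set that changed by 0.23 with estradiol (adjusted p = 0.288), but 2 still dimmer ones fell by 1.36 (adjusted p = 0.0044) and by 0.91 (adjusted p = 0.03). A pair of probe sets that name RPS16 with LOC708154 were far brighter, and the brighter of these fell by 0.26 with estradiol (adjusted p = 0.0144) and by 0.34 with the combination (adjusted p = 0.00574), with -0.14 for tamoxifen (adjusted p = 0.219). RPL15, also of the Diamond-Blackfan group, changed by -0.18 with the combination (adjusted p = 0.082) in its brightest probe set and fell by 0.39 (adjusted p = 0.0388) in its second. RPS15, which fell with the combination, changed there by 0.05 (adjusted p = 0.674) in its second probe set, and with estradiol by -0.20 in the first and 0.18 in the second, neither past the threshold. RPL26, which also fell with the combination, changed there by -0.11 (adjusted p = 0.711) in its second. RPL7L1 changed with estradiol by -0.40 in its brightest probe set and by 0.04 to 0.56 in 3 dimmer ones, and RPL29, a large subunit gene, by -0.16 in its brightest and by -0.09 and 0.23 in the others, with none passing.

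Other probe sets name a ribosomal protein together with at least 1 other gene, mostly uncharacterized loci; some of these ribosomal proteins are among the 41 genes and others, such as RPL34 and RPS14, are not. Of 30 such probe sets 26 were tested. With estradiol 15 were lower and 1 higher, with tamoxifen 5 were lower and none higher, and with the combination 14 were lower and none higher. Of all probe sets 12.3%, 6.17% and 7.79% were lower and 13.2%, 7.14% and 8.05% higher. Quantile normalization took the counts to 2 lower and 3 higher, 2 and 0, and 5 and 0, where 12.2%, 6.34% and 7.71% of all probe sets were lower. The median change of the 26 in the deposited arrays was -0.26 with estradiol, -0.09 with tamoxifen and -0.27 with the combination. One that names RPL5 and LOC707117 had 11048, 10642, 11512 and 12085 with estradiol, 12611, 11315, 13752 and 12063 with tamoxifen and 11492, 10942, 9873 and 10613 with the combination, against 13470, 15437, 13588 and 12901 in control. It changed by -0.29 (adjusted p = 0.0132), -0.16 (adjusted p = 0.196) and -0.37 (adjusted p = 0.00591), opposite in sign to the dim RPL5 probe set with estradiol and the combination. One that names RPL22 with 3 others changed by -0.42 (adjusted p = 0.00155), -0.25 (adjusted p = 0.046) and -0.35 (adjusted p = 0.00921).

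The stress-response paralogue RPS27L, which is a target of p53, was bright only in a probe set shared with LOC708492. That probe set gave 2879, 3340, 3256 and 3310 with estradiol, 3135, 3299, 3583 and 3315 with tamoxifen and 3471, 3423, 2481 and 4227 with the combination, against 4419, 4596, 4149 and 4499 in control. The estradiol and tamoxifen arrays lay below all control arrays and 1 combination array overlapped them. The change was -0.47 (adjusted p = 0.0104), -0.41 (adjusted p = 0.0359) and -0.40 (adjusted p = 0.0338). Which of the genes named gives the signal of such a probe set was not tested.

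The treated arms were also compared with each other. By limma none of the 39 genes passed in the combination against estradiol, where 1.22% of all probe sets passed, in the combination against tamoxifen, where 0% passed, or in tamoxifen against estradiol, where 0.569% passed. Without adjustment 6, 15 and 8 of the 39 had a p under 0.05, which is 15.4%, 38.5% and 20.5% of them, where 15.8%, 4.05% and 12.9% of all probe sets did. The share for the combination against estradiol is thus at that of all probe sets, while the shares for both other comparisons are above it. For the combination against tamoxifen the change was below 0 in 33 of the 39 genes, where 50.9% of all probe sets were. The median change was -0.06 for the combination against estradiol, -0.15 for the combination against tamoxifen and 0.07 for tamoxifen against estradiol. Quantile normalization made these -0.043, -0.024 and -0.014. RPL19, a large subunit protein that reaches over to the small subunit, came nearest to the threshold. It had 913, 849, 1036 and 1049 with the combination, against 741, 764, 732 and 517 with estradiol, a change of 0.49 (SE 0.12, adjusted p = 0.0616), with no overlap. Without array estradiol 3, 1 gene passed in this comparison.

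RPL12, RPS18, RPL7, RPL15 and RPL8 had the smallest p for the combination against tamoxifen, with changes between -0.23 and -0.17 and an adjusted p of 1 each. RPL22L1 was lower with the combination than with estradiol, by -0.44 (adjusted p = 0.131), and lower with tamoxifen than with estradiol, by -0.41 (adjusted p = 0.214), without passing. RPS10 and RPL5 had the smallest p for tamoxifen against estradiol, at 0.19 (adjusted p = 0.207) and -0.94 (adjusted p = 0.209).

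The interaction asks whether the effect of both drugs together departs from the sum of the single effects. RPL26L1 was the 1 gene of 39 that passed, at -0.68 (SE 0.18, adjusted p = 0.0269), where 5.35% of all probe sets passed as negative; beside its change of 0.40 with estradiol stand 0.27 with tamoxifen and -0.02 with the combination. The call was lost without estradiol 2, tamoxifen 3, tamoxifen 4 or combination 3, each of which left 0 genes, with an adjusted p of up to 0.0552. Without control 4, estradiol 4 or combination 2 the count was 2 genes. RPL36AL had an interaction of 0.45 (adjusted p = 0.0579), beside changes of -0.49, -0.40 and -0.44 with estradiol, tamoxifen and the combination. RPL19 had 0.52 (adjusted p = 0.0703). The median over the 39 genes was 0.02.

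Within the arms the bright core genes varied together from array to array. After the arm means were removed, the median of all pairwise correlations over the 16 arrays was 0.58 among the 23 core genes of 5000 or more, -0.05 among the 11 dimmer ones and 0.36 among all 34. These points share the array and its scaling, so the values are descriptive. RPL8, RPL23, RPL26 and the dim RPL31 followed the mean of the other core genes most closely, with correlations of 0.85, 0.84, 0.80 and 0.80, and RPS16 and RPL19 ran opposite to it, with -0.49 and -0.40. The median deviation of the 23 bright genes was highest on arrays control 2 and control 3, at 0.28 and 0.24, and lowest on combination 3, at -0.23. Arrays tamoxifen 1 and tamoxifen 3, at 0.07 and 0.16, lay within the control range of 0.06 to 0.28.

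Of other genes for parts of the ribosome, FAU and RACK1 fell with the combination and FAU also with estradiol. FAU, whose product holds the small subunit protein eS30, fell by 0.28 with estradiol (adjusted p = 0.0297) and by 0.38 with the combination (adjusted p = 0.0101), with -0.19 for tamoxifen (adjusted p = 0.173). RACK1, a scaffold on the small subunit, fell by 0.27 with the combination (adjusted p = 0.0359), with -0.10 and -0.05 for estradiol and tamoxifen. Neither passed in any arm after quantile normalization. Of 11 translation factors and similar genes with the same kind of leader sequence, 1 rose and 2 fell with estradiol, none passed with tamoxifen and 1 fell with the combination. With estradiol 9.09% rose and 18.2% fell, where 13.2% and 12.3% of all probe sets did. With the combination 9.09% fell, near the 7.79% of all probe sets. EIF3E, a subunit of an initiation factor, fell by 0.23 with estradiol (adjusted p = 0.0358) and by 0.36 with the combination (adjusted p = 0.00519), whereas EIF3L of the same factor rose by 0.43 with estradiol (adjusted p = 0.00478). For tamoxifen none of the 11 had an unadjusted p under 0.05.

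Genes that assemble ribosomes more often rose than fell with estradiol. Of 28 such genes 11 rose and 1 fell with estradiol, 3 rose and 0 fell with tamoxifen, and 3 rose and 1 fell with the combination. The share that rose was 39.3%, 10.7% and 10.7%, where 13.2%, 7.14% and 8.05% of all probe sets rose. With tamoxifen and the combination it was thus near that of all probe sets. The medians of the 28 were 0.26, 0.16 and 0.12. After quantile normalization the counts that rose and fell were 12 and 0, 3 and 0, and 3 and 0. NHP2, a protein of the particles that modify ribosomal RNA, had 2412, 2320, 2123 and 1954 with estradiol, 1946, 1466, 1744 and 1968 with tamoxifen and 2175, 1707, 1253 and 1647 with the combination, against 998, 1133, 892 and 954 in control. It rose by 1.14 (adjusted p = 0.000115), 0.83 (adjusted p = 0.00242) and 0.75 (adjusted p = 0.00367), with no overlap. Its partner GAR1 rose by 0.75 (adjusted p = 0.000203), 0.38 (adjusted p = 0.0244) and 0.38 (adjusted p = 0.0222). BYSL, which acts in small subunit assembly, rose by 0.77 with estradiol (adjusted p = 0.00132), and BOP1, which acts in large subunit assembly, by 0.79 (adjusted p = 0.00219). NPM1, an abundant protein of the nucleolus, was the gene that fell with estradiol, by 0.24 (adjusted p = 0.0258). In the interaction 5 of the 28 genes, or 17.9%, were negative and none positive, where 5.35% of all probe sets passed as negative. NHP2 stood at -1.23 (adjusted p = 0.00348).

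**Figure D5:**
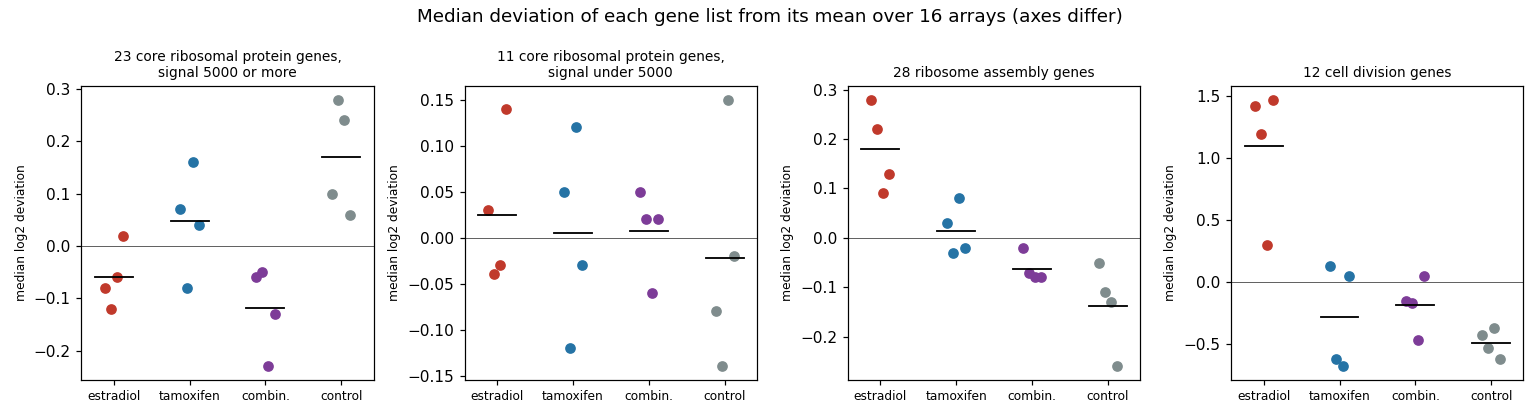
Median over a gene list of the deviation of each gene from its mean over 16 arrays (y axis, log2 units, a separate scale in each panel) on every array, with the arms estradiol, tamoxifen, combination and control from left to right; points are arrays and lines arm means. The bright core ribosomal protein genes are highest in control, by a difference that quantile normalization shrinks, while the assembly genes and the cell division genes are highest with estradiol.

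RNA polymerase I, which makes the ribosomal RNA, gave mixed results. Of 9 genes for it and its factors, 2 rose and 1 fell with estradiol, and 1 fell with each of tamoxifen and the combination. With estradiol 22.2% rose and 11.1% fell, where 13.2% and 12.3% of all probe sets did. The 1 gene that fell is 11.1% in the other arms too, where 6.17% and 7.79% of all probe sets fell. POLR1D, a subunit shared with RNA polymerase III, had 1149, 1160, 1805 and 1417 with estradiol, 1387, 1274, 1640 and 1615 with tamoxifen and 1354, 1237, 1326 and 1739 with the combination, against 3235, 2522, 2691 and 2471 in control. It fell by 1.00 (adjusted p = 0.000376), 0.88 (adjusted p = 0.0022) and 0.95 (adjusted p = 0.0011), with no overlap. POLR1C, another shared subunit, rose by 0.63 with estradiol (adjusted p = 0.0159), and the ribosomal RNA gene activator UBTF rose by 0.40 (adjusted p = 0.0207).

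Of 13 genes of mTOR signalling and MYC, 2 rose and 5 fell with estradiol, 2 rose and 4 fell with tamoxifen, and 4 rose and 3 fell with the combination. The shares that rose were 15.4%, 15.4% and 30.8%, where 13.2%, 7.14% and 8.05% of all probe sets rose. The shares that fell were 38.5%, 30.8% and 23.1%, where 12.3%, 6.17% and 7.79% of all probe sets fell. RPS6KB1, the kinase that phosphorylates RPS6, had 744, 692, 792 and 789 with estradiol, 872, 931, 911 and 884 with tamoxifen and 771, 815, 798 and 806 with the combination, against 1165, 1091, 1073 and 1045 in control. It fell by 0.53 (adjusted p = 0.000203), 0.28 (adjusted p = 0.0218) and 0.45 (adjusted p = 0.00132). TSC1, a brake on mTOR, fell by 0.67, 0.55 and 0.57, with an adjusted p of 0.00167, 0.012 and 0.00845. MYC rose by 1.06 with estradiol (adjusted p = 0.00172), with -0.10 (adjusted p = 0.778) for tamoxifen and -0.17 (adjusted p = 0.623) for the combination, and MYCN, its relative, rose by 1.96, 2.16 and 2.22, with an adjusted p of 0.00336, 0.00448 and 0.00294. Of 6 genes listed for the surveillance or export of ribosome subunits, 1 rose with estradiol, the export adapter NMD3, at 0.47 (adjusted p = 0.0187). That is 16.7% of them, near the 13.2% of all probe sets that rose. None of the 6 passed by limma with tamoxifen or the combination, and 1 had an unadjusted p under 0.05 in each.

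Cell type markers and RNA quality moved with the arms as well. Of all probe sets 13.2%, 7.14% and 8.05% rose with estradiol, tamoxifen and the combination, and 12.3%, 6.17% and 7.79% fell. Of 11 epithelial markers 7 rose with estradiol, 5 with tamoxifen and 7 with the combination, and their median deviation per array ran from -0.32 to 1.01, -0.69 to 1.15 and 0.04 to 0.50, against -1.09 to -0.76 in control. Of 12 stromal markers 7, 4 and 4 rose and 0, 0 and 1 fell, with deviations of 0.35 to 0.70, -0.10 to 0.40 and -0.21 to 0.16, against -0.69 to -0.13 in control. Of 11 endothelial markers 6, 1 and 1 fell, and of 8 leukocyte markers 0, 3 and 4 fell. The 1 endothelial marker is 9.09%, near the share of all probe sets. Of 12 cell division genes 11 rose with estradiol, with deviations of 0.30 to 1.47, against -0.62 to -0.37 in control, and by limma none passed with tamoxifen or the combination, where 1 and 2 had an unadjusted p under 0.05. The log2 ratio of 3' to 5' actin signal, a measure of how complete the labelled RNA was, was 0.57 ± 0.18 with estradiol, 0.52 ± 0.043 with tamoxifen and 0.55 ± 0.075 with the combination, against 0.92 ± 0.11 in control (SD, n = 4 each). The part of these shifts in the ribosomal protein changes was not tested.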

How the data were processed

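The authors deposited linear intensity values, 1 for each of 52865 probe sets on every array, between 0.0242 and 23401. Per the submitters' processing notes, GCOS, MAS5 and Affymetrix Expression Console were used; neither versions nor the scaling target are stated in them. The mean without the 2% of values at either end was 250.0 on each of the 16 arrays, and no further scaling was applied. With 99 control probe sets left out, the analysis used log2(signal + 4.80), a pseudocount equal to the 10th percentile, which understates changes of dim transcripts. Probe sets in the lowest 40% by mean log2 value were dropped. limma 3.58.1 in R 4.3.3 fitted 1 mean per arm to 16 arrays, with 12 residual degrees of freedom and a trended eBayes, and the Benjamini-Hochberg adjustment ran over 31660 probe sets in each of 7 comparisons. The fit was tested on simulated data.

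Arrays were matched to arms by the labels. Nothing in the labels pairs animals across arms, and deviations from the arm means in 24 same-numbered pairs correlated between -0.27 and 0.09, so no block was used. Symbols come from the platform's annotation, where 361 probe sets name several. Cross-hybridization was not examined. The text names genes outside the core lists, changes past the threshold without overlap, the smallest p where few passed, the brightest and dimmest genes, and genes whose probe sets disagree; RPLP2, RPL13, RPL22, RPL29, RPL34, RPS14, RPL24, RPL31 and RPS9 were named after their values were seen. The members, lists and tests were chosen with earlier results of these data known. The alternatives were a pseudocount of 16, no filter, quantile normalization, median centring, the mean of a gene's probe sets, eBayes without a trend, only the arms compared, a replicate block, and leaving out 2 arrays together or each array in turn.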

Additional observations from a re-analysis of the deposited data

Results flagged for a closer look

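Among 156 sets of 4 arrays, 1 for each tested gene and arm, 12 held an array that lay far from the other 3 on the log2 scale; chance gives about 1 in 20. Array estradiol 4 was high in RPL17 (13.65, others 13.39 to 13.42), RPS28 (13.43, others 13.32 to 13.33) and RPS18 (13.39, others 13.23 to 13.26), and low in RPL19 (9.03, others 9.53 to 9.59). Array combination 3 was low in RPL26 (13.16, others 13.32) and RPLP2 (12.75, others 12.96 to 12.97). Array tamoxifen 2 was low in RPS28 (13.23, others 13.46 to 13.50), tamoxifen 3 was high in RPL24 (11.98, others 10.26 to 10.36) and combination 4 was low in RPS10 (11.35, others 11.52 to 11.55). RPL13 was low on estradiol 3 (12.60, others 13.07 to 13.16) and high on combination 1 (13.05, others 12.45 to 12.52). Control 2 was high in RPL35A (14.04, others 13.87 to 13.89).

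The interaction of estradiol and tamoxifen passed for RPL26L1, at -0.68 (limma, adjusted p = 0.0269). Its change was 0.40 for estradiol against control and -0.29 for the combination against tamoxifen (adjusted p = 1). It was 1 of 39 genes, or 2.56%, where 5.35% of all probe sets passed as negative. The call held in 12 of 16 fits that each left out 1 array.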

How the results depend on the processing

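The number of the 39 genes that passed, either way, depended on several settings. For estradiol against control it was 12, and 7 with no filter on dim probe sets, 3 with quantile normalization, 4 with eBayes without a trend and 7 with only the arms compared. For tamoxifen it was 6, and 2 with only the arms compared. For the combination it was 16, and 10 with no filter, 6 with quantile normalization and 9 without a trend. For the interaction it was 1, and 2 with the mean of a gene's probe sets. Leaving out each array in turn gave 4 to 13 genes for estradiol, 2 to 6 for tamoxifen, 8 to 19 for the combination, 0 to 1 for the combination against estradiol, 0 for both other comparisons between treated arms and 0 to 2 for the interaction. With the animal number as a replicate block the counts were 8, 3 and 11 for the 3 comparisons with control; 1 of 16 arrays correlated best with its own number. The median change of the 39 genes moved by more than the replicate spread with quantile normalization, to -0.03 for estradiol, -0.063 for the combination, -0.024 for the combination against tamoxifen and -0.014 for tamoxifen against estradiol. Of single calls, that of RPS6 with estradiol reversed in direction under quantile normalization, at 0.017 (adjusted p = 0.821), whose cause was not tested; of the others of the genes named, 3366 gene and setting pairs kept their call and 456 lost it with the same direction. Signals below the filter, and probe sets shared between genes, limit what can be said of RPL3L, RPS27L and RPLP0.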
